A study of Mus musculus with 9 samples.

Results

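Complex I (NADH:ubiquinone oxidoreductase) genes were described from 1-colour Agilent whole-genome arrays of spleens of female BALB/c mice. A gene was a member when the accession of a non-control probe mapped to a mouse symbol that starts with Ndufa, Ndufb, Ndufc, Ndufs, Ndufv or Ndufaf. The rule used names only and no measured value. It took 46 genes (38 subunit symbols and 8 assembly factors of the Ndufaf series) on 54 probes, out of 32451 genes or accessions on the array, of which 20659 have a symbol. All 46 members were tested, and the probe used for each (the brightest one) was well above background on all 9 arrays. Another 8 symbols of the annotation fit the rule but have no named probe, among them the copies Ndufb4b, Ndufb4c, Ndufs6b and Ndufa11b. Whether a member's probe also binds RNA of such a copy was not tested. The subunits encoded by mitochondrial DNA have no named probe either and were not analysed here.

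Complex I is the entry point of the mitochondrial respiratory chain: it takes electrons from NADH, passes them along iron-sulfur clusters to ubiquinone and pumps protons across the inner membrane. Its matrix arm holds an NADH module and a ubiquinone module, and its membrane arm has a proximal and a distal part, each with core subunits and accessory subunits. Assembly factors build these modules separately and join them, and are not part of the finished enzyme. In the spleen, respiring lymphocytes, macrophages and dividing erythroid precursors all contribute RNA for these genes.

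The 9 samples fall into 3 groups of 3. Normal Se GD samples came from mice with Graves' disease, an autoimmune overactivity of the thyroid, on a normal dietary selenium supply. Low Se GD samples came from diseased mice on a low supply, and low Se non-GD samples from mice without the disease on a low supply. All 3 groups share strain, sex and tissue. How the disease was induced, what the diets held and the age of the mice are not stated in the labels or headers used here, and with no non-diseased group on a normal supply a disease by diet interaction cannot be estimated. The labels do not say that samples of a group are separate animals, so p-values measure the spread between samples only. In bulk spleen, fewer cells of a type and less RNA per cell cannot be told apart.

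On 8 arrays 72.6% to 82.6% of non-control probes were well above background, and on normal Se GD replicate 3 it was 58.4%. Mean levels of the B cell markers (1.86 to 2.42) and T cell markers (0.92 to 1.59) lay above the array's 75th percentile on every array. Over 22361 bright probes, low Se non-GD replicate 3 had a value between those of replicates 1 and 2 in 77.3% of cases, and low Se GD replicate 2 one between those of replicates 1 and 3 in 69.1%. Over the 46 members the counts were 30 and 32. These are called the in-between arrays. Counts are therefore also given without both arrays, a setting chosen after seeing the data. There were 3 slides. Slide 1 held low Se GD replicate 1 beside all 3 low Se non-GD arrays, slide 2 held replicates 1 and 2 of normal Se GD beside replicates 2 and 3 of low Se GD, and slide 3 held normal Se GD replicate 3 alone. Low Se non-GD and normal Se GD share no slide, so for that pair slide and group are tied together except through low Se GD. With slide as a block, low Se GD therefore differs from low Se non-GD by its replicate 1 alone. Normal Se GD then differs from low Se GD by the arrays of slide 2, and from low Se non-GD through both steps.

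Promoter sequences are shown for the 5 members that passed the threshold in both comparisons with low Se non-GD, which share those arrays; they were chosen after their values were seen. They are RefSeq windows on GRCm38.p6, from 250 bases before to 50 bases after the gene start, 5′ to 3′ on the gene's strand. Capitals mark matches to 1 of 4 motifs of factors known for nuclear genes of respiration: NRF1 (its palindromic motif), the ETS family with GABPA (CCGGAAG), YY1 (AAGATGGCG) and ESRRA (CAAGGTCA), searched on both strands, with no overlap between the motifs in these windows. The windows lie at chr6:11907401-11907700 (minus strand) for Ndufa4, chr7:97399753-97400052 (plus strand) for Ndufc2, chr3:51408906-51409205 (minus strand) for Ndufc1, chr9:108567387-108567686 (minus strand) for Ndufaf3 and chr2:140170396-140170695 (plus strand) for Ndufaf5.
Ndufa4: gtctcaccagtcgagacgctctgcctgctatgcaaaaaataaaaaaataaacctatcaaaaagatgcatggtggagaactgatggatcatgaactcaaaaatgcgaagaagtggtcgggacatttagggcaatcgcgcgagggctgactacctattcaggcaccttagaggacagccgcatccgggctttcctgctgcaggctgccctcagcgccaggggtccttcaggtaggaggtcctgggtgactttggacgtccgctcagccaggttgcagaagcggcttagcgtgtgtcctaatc
Ndufc2: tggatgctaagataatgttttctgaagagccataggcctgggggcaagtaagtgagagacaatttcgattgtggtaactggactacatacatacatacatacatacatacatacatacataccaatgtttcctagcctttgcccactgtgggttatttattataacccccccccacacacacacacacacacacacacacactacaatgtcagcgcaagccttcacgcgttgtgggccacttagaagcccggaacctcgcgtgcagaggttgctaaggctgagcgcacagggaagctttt
Ndufc1: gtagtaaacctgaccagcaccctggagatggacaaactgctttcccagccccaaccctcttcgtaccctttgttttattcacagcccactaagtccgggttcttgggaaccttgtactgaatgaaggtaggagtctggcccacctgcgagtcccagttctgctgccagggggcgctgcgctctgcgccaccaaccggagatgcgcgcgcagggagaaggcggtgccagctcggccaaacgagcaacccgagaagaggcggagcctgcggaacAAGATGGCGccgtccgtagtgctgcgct
Ndufaf3: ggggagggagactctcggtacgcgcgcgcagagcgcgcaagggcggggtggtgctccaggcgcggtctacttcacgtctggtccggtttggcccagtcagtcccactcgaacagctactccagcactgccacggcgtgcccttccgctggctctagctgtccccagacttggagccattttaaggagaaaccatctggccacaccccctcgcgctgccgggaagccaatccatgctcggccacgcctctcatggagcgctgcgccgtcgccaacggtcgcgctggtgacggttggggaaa
Ndufaf5: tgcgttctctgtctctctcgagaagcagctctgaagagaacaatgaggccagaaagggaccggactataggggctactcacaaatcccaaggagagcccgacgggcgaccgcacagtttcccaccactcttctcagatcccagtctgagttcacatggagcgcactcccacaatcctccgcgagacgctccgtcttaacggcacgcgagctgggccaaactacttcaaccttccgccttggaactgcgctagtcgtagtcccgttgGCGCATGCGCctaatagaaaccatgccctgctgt
The Ndufc1 window holds 1 YY1 match close to its 3′ end, and the Ndufaf5 window holds 1 NRF1 site that reads the same on both strands. The other 3 windows hold none of these letters. Of the 46 members, 40 have a RefSeq window, some of them several, giving 42 windows. NRF1 letters occurred in 23.8% of these 42 windows and in 4.60% of all 32851 windows, YY1 letters in 14.3% and 1.40%, ETS letters in 14.3% and 8.86%, and ESRRA letters in 2.38% and 1.56%. NRF1 matches stood in the windows of 9 genes. These were Ndufa5, Ndufa6, Ndufa8, Ndufa11, Ndufb4, Ndufs5, Ndufs6, Ndufaf4 and Ndufaf5. A match is a string of letters and does not show binding.

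The first comparison, of low Se GD relative to low Se non-GD spleens, asks how the diseased spleen differs when selenium is low. Among the 46 members, 11 were higher and 1 lower in low Se GD at an adjusted p under 0.05. These are 23.9% and 2.17% of the members, beside 12.8% and 12.1% of all 26337 genes tested, and in either direction 26.1% beside 24.9%. The members' median log2 difference was 0.14, beside 0.08 over all genes, and 35 of 46 members had a positive one, beside 56.9% of all genes. The 3 low Se GD arrays lay wholly above the 3 low Se non-GD arrays for 27 members and wholly below for 5, which are 58.7% and 10.9% of the members, beside 29.5% and 23.4% of all genes (53% in either direction). All-gene medians moved with the scaling, to -0.16 after normexp background correction and 0.13 after quantile normalization, where the members' medians were 0.18 and 0.17. With slide as a block the difference rests on low Se GD replicate 1 alone. The members' median was then 0.087, beside 0.077 over all genes, and 31 of 46 were positive.

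The count of 12 moved with the arrays in the fit. It was 5, all higher, without low Se GD replicate 2 or 3 or without low Se non-GD replicate 2 or 3. Without normal Se GD replicate 3, which enters only the common spread, it was 18 (15 higher, 3 lower). These counts stand without the share of all genes called in the same fits. Whether the moves are particular to the members was not tested. Without both in-between arrays, a fit of fewer arrays, 0 members passed (7 at an unadjusted p under 0.05), beside 1.02% of all genes, and within slide 1, where low Se GD is 1 array and few calls can be made, 0 passed (9 unadjusted), beside 3.59% of all genes.

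**Figure D1:**
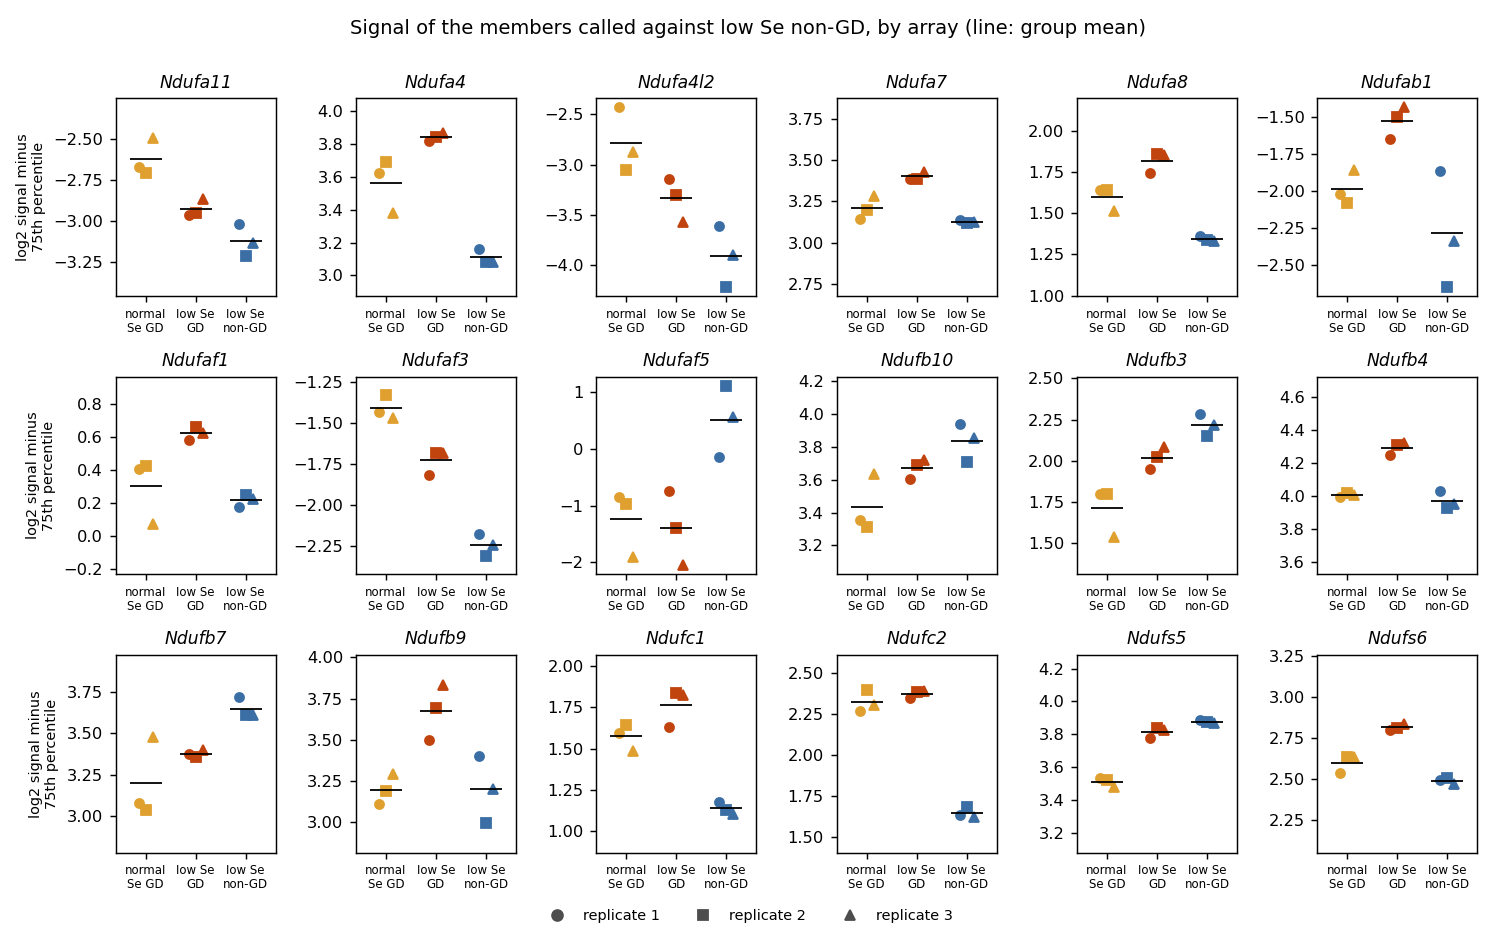
Signal of the 18 members past the threshold in either comparison with low Se non-GD, on each array as log2 signal less that array's 75th percentile, with group means as lines; vertical scales differ between panels. Ndufc2, Ndufc1, Ndufa4, Ndufaf3, Ndufa7, Ndufa8, Ndufa11, Ndufs6 and Ndufa4l2 have all 6 diseased arrays above the 3 low Se non-GD arrays. Ndufaf5, Ndufs5, Ndufb3 and Ndufb7 have all 6 below those arrays.

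Signals below are log2 processed signal minus the array's 75th percentile, for replicates 1, 2 and 3 in turn. Among the accessory subunits of the proximal membrane arm, 3 of 9 were higher in low Se GD and 0 lower, beside 12.8% and 12.1% of all genes. Ndufc2, an accessory subunit of this arm, read 2.27, 2.39 and 2.31 in normal Se GD, 2.35, 2.38 and 2.39 in low Se GD, and 1.64, 1.68 and 1.62 in low Se non-GD. The 6 diseased arrays lay within 2.27 to 2.39, and the 3 low Se non-GD arrays lay well below. The difference between low Se GD and low Se non-GD was 0.72 ± 0.08 (SE; 1.65-fold, adjusted p = 0.00147). Ndufc1, its small partner subunit, read 1.59, 1.64 and 1.48 in normal Se GD, 1.63, 1.83 and 1.82 in low Se GD, and 1.18, 1.13 and 1.1 in low Se non-GD. Low Se GD exceeded low Se non-GD on every array, by 0.63 ± 0.10 (SE; 1.54-fold, adjusted p = 0.00378). Ndufa8, a subunit on the intermembrane space side, read 1.64, 1.64 and 1.51 in normal Se GD, 1.74, 1.86 and 1.85 in low Se GD, and 1.36, 1.34 and 1.33 in low Se non-GD. The groups did not overlap, and low Se GD stood 0.48 ± 0.09 (SE; 1.39-fold, adjusted p = 0.00688) above low Se non-GD. Within low Se non-GD, Ndufc2 ran from 1.62 to 1.68 and Ndufa8 from 1.33 to 1.36. The mean of the erythroid markers on the same arrays read 3.86, 1.99 and 3.21. Other called members ranged more widely there, among them Ndufab1 (-1.86, -2.65 and -2.34) and Ndufb9 (3.40, 3.0 and 3.20). The part of erythroid cells in any of these values was not tested.

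The NADH module oxidises NADH at the tip of the matrix arm. Of its members 2 of 10 were higher and 0 lower, beside 12.8% and 12.1% of all genes. Positive differences were seen for 9 of 10, beside 56.9% of all genes. Ndufs6, a zinc-binding subunit, read 2.53, 2.63 and 2.63 in normal Se GD, 2.80, 2.81 and 2.84 in low Se GD, and 2.49, 2.51 and 2.47 in low Se non-GD. Ndufa7, an accessory subunit there, read 3.15, 3.20 and 3.29 in normal Se GD, 3.39, 3.39 and 3.43 in low Se GD, and 3.13, 3.12 and 3.13 in low Se non-GD. Both had low Se GD wholly above low Se non-GD. The differences were 0.33 ± 0.08 (SE; 1.25-fold, adjusted p = 0.0214) for Ndufs6 and 0.28 ± 0.08 (SE; 1.21-fold, adjusted p = 0.0428) for Ndufa7.

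In the distal membrane arm 3 of 11 members were higher and 0 lower in low Se GD, beside 12.8% and 12.1% of all genes. Ndufab1, the mitochondrial acyl carrier protein, which also serves fatty acid synthesis, read -2.02, -2.08 and -1.86 in normal Se GD, -1.65, -1.5 and -1.44 in low Se GD, and -1.86, -2.65 and -2.34 in low Se non-GD. Low Se GD lay above every low Se non-GD array, though low Se non-GD replicate 1 came close, and the difference was 0.76 ± 0.19 (SE; 1.69-fold, adjusted p = 0.0244). Ndufb9, a subunit that binds an acyl carrier protein, read 3.11, 3.19 and 3.29 in normal Se GD, 3.50, 3.70 and 3.83 in low Se GD, and 3.40, 3.0 and 3.20 in low Se non-GD. Its 3 low Se GD arrays were again above all 3 low Se non-GD arrays, by 0.47 ± 0.14 (SE; 1.39-fold, adjusted p = 0.0398). Ndufb4, an accessory subunit, read 4.0, 4.02 and 4.01 in normal Se GD, 4.25, 4.31 and 4.32 in low Se GD, and 4.03, 3.93 and 3.95 in low Se non-GD. The difference was 0.32 ± 0.08 (SE; 1.25-fold, adjusted p = 0.0225), and its other probe gave 0.32 (adjusted p = 0.0244) in a fit over all probes. With slide as a block, low Se GD replicate 1 alone gave 0.30 for Ndufb9 and 0.64 for Ndufab1, and neither passed.

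The arm's mean over 11 genes read 2.36, 2.39 and 2.43 in normal Se GD, 2.54, 2.66 and 2.72 in low Se GD, and 2.55, 2.38 and 2.45 in low Se non-GD. The mean of 10 erythroid markers read 2.84, 2.84 and 2.94 in normal Se GD, 3.45, 3.72 and 3.97 in low Se GD, and 3.86, 1.99 and 3.21 in low Se non-GD. The mean of 10 cell cycle genes read 1.5, 1.51 and 1.33 in normal Se GD, 1.99, 2.37 and 2.58 in low Se GD, and 2.21, 1.13 and 1.77 in low Se non-GD. Low Se non-GD replicate 1 was the highest and replicate 2 the lowest of their group for the arm and for both lists. This order was not particular to them. It also held for the means of complexes II to IV, ATP synthase, and the macrophage, neutrophil and fat cell markers. B cell and T cell markers had replicate 1 lowest and replicate 2 highest. The part of red cell precursors or of dividing cells in the arm's difference was not tested.

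Among the 8 assembly factors 2 were higher and 1 lower, beside 12.8% and 12.1% of all genes. Ndufaf3, which works with Ndufaf4 in building the ubiquinone module, read -1.43, -1.33 and -1.47 in normal Se GD, -1.82, -1.68 and -1.68 in low Se GD, and -2.17, -2.31 and -2.24 in low Se non-GD. All diseased arrays lay above all low Se non-GD arrays. The low Se GD difference was 0.52 ± 0.09 (SE; 1.43-fold, adjusted p = 0.00635), and after normexp it did not pass (0.28, adjusted p = 0.0501). Ndufaf1, which assembles the membrane arm together with Ecsit, read 0.41, 0.43 and 0.07 in normal Se GD, 0.59, 0.66 and 0.63 in low Se GD, and 0.17, 0.25 and 0.23 in low Se non-GD. Low Se GD was again separate, by 0.41 ± 0.11 (SE; 1.33-fold, adjusted p = 0.0346).

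Ndufaf5, which hydroxylates an arginine of the core subunit Ndufs7, was lower in both diseased groups. It read -0.84, -0.98 and -1.91 in normal Se GD, -0.74, -1.40 and -2.05 in low Se GD, and -0.14, 1.11 and 0.56 in low Se non-GD. Neither diseased group overlapped low Se non-GD, and the difference of low Se GD from low Se non-GD was -1.91 ± 0.45 (SE; 0.266-fold, adjusted p = 0.0188), but its SD within groups (0.58, 0.66 and 0.63) was the largest of any member in each group. An Agilent E1A control spot, made for added RNA and not for a mouse gene, read 2.37, 1.43 and 0.87 in normal Se GD, 2.51, 1.71 and 1.01 in low Se GD, and 4.72, 5.85 and 5.35 in low Se non-GD on the same scale. The order of this spot within each group was that of Ndufaf5. Other E1A spots read had the Ndufaf5 order in both low Se groups but not in normal Se GD. There they read -7.03, -8.06 and -5.80, and -6.59, -7.59 and -6.14, with replicate 3 highest. The part of any E1A spot in the Ndufaf5 signal was not tested. A second Ndufaf5 probe was well above background on 1 array and gave no usable value. The call was lost with slide as a block, where low Se GD replicate 1 alone gave -1.25. It was also lost without either of low Se GD replicates 2 and 3 or low Se non-GD replicates 2 and 3.

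The Ndufa4 family was considered apart. Ndufa4 was first purified with complex I and is now known as a subunit of complex IV, cytochrome c oxidase. It read 3.62, 3.69 and 3.38 in normal Se GD, 3.82, 3.84 and 3.87 in low Se GD, and 3.16, 3.08 and 3.08 in low Se non-GD. No diseased array overlapped the low Se non-GD arrays, and the low Se GD difference was 0.73 ± 0.10 (SE; 1.66-fold, adjusted p = 0.00285). Ndufa4l2, a target of the hypoxia factor HIF-1 that is known to restrain complex I activity, read -2.43, -3.05 and -2.88 in normal Se GD, -3.14, -3.30 and -3.57 in low Se GD, and -3.61, -4.22 and -3.90 in low Se non-GD. Low Se GD arrays lay above low Se non-GD arrays, but the difference of 0.57 ± 0.22 (SE; 1.49-fold, adjusted p = 0.0924) did not pass, and after normexp its sign turned (-0.016, adjusted p = 0.948).

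Of the 7 core matrix arm subunits encoded in the nucleus 0 passed in each comparison by limma, beside 24.9%, 1.27% and 32.3% of all genes. An unadjusted p under 0.05 was seen for 1 of the 7 in the first, 2 in the second and 0 in the third. Ndufv1, which binds NADH and the flavin, read 3.05, 3.06 and 3.04 in normal Se GD, 3.27, 3.47 and 3.45 in low Se GD, and 3.29, 2.94 and 3.08 in low Se non-GD, with 0.29 ± 0.11 (SE; 1.22-fold, adjusted p = 0.101) for low Se GD relative to low Se non-GD. Ndufv2, an iron-sulfur subunit beside it, read 2.63, 2.72 and 2.5 in normal Se GD, 2.83, 2.95 and 3.04 in low Se GD, and 2.80, 2.71 and 2.71 in low Se non-GD, with 0.20 ± 0.10 (SE; 1.15-fold, adjusted p = 0.185). Ndufs1, the large iron-sulfur subunit, read 1.85, 1.90 and 2.12 in normal Se GD, 1.98, 2.05 and 2.13 in low Se GD, and 2.23, 2.06 and 2.12 in low Se non-GD, with -0.08 ± 0.11 (SE; 0.945-fold, adjusted p = 0.624). For Ndufv1 and Ndufs1 low Se GD overlapped low Se non-GD, while Ndufv2 was separate by a small margin.

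In the ubiquinone module, 3 core subunits are given by array. Ndufs3, a structural core subunit, read 3.45, 3.52 and 3.65 in normal Se GD, 3.64, 3.72 and 3.70 in low Se GD, and 3.56, 3.54 and 3.53 in low Se non-GD, with 0.14 ± 0.09 (SE; 1.1-fold, adjusted p = 0.283). Its low Se GD arrays lay above its low Se non-GD arrays. Ndufs7, which carries the last iron-sulfur cluster before ubiquinone, read 3.30, 3.32 and 3.75 in normal Se GD, 3.69, 3.60 and 3.64 in low Se GD, and 3.56, 3.47 and 3.48 in low Se non-GD, with 0.14 ± 0.13 (SE; 1.1-fold, adjusted p = 0.488). Ndufs8, which carries iron-sulfur clusters too, read -0.16, -0.03 and -0.34 in normal Se GD, -0.43, -0.28 and -0.16 in low Se GD, and -0.42, -0.30 and -0.38 in low Se non-GD, with 0.08 ± 0.12 (SE; 1.06-fold, adjusted p = 0.664). For Ndufs7, normal Se GD replicate 3 was the highest of its group, and it was also the array with the fewest probes above background.

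The 34 members without a call in the first comparison, core subunits included, ran between -0.27 for Ndufb7 and 0.57 for Ndufa4l2. Ndufaf4, which pairs with Ndufaf3 in assembly, came nearest the threshold at 0.31 ± 0.10 (SE; 1.24-fold, adjusted p = 0.0613). Members with several probes did not always give the same answer. The second Ndufaf4 probe gave -0.19 (adjusted p = 0.220) in the fit over all probes. The second Ndufv3 probe gave -0.33 (adjusted p = 0.0799), beside 0.11 for the brighter one. For Ndufb6 the second probe was higher in low Se GD at 0.39 (adjusted p = 0.0366), while the brighter one gave 0.15 (adjusted p = 0.332). Probes of Ndufa5 differed in sign, at -0.04 and 0.04. Those of Ndufb5 gave 0.15 and 0.21, and the second probe of Ndufb11 was well above background on 2 arrays only.

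**Figure D2:**
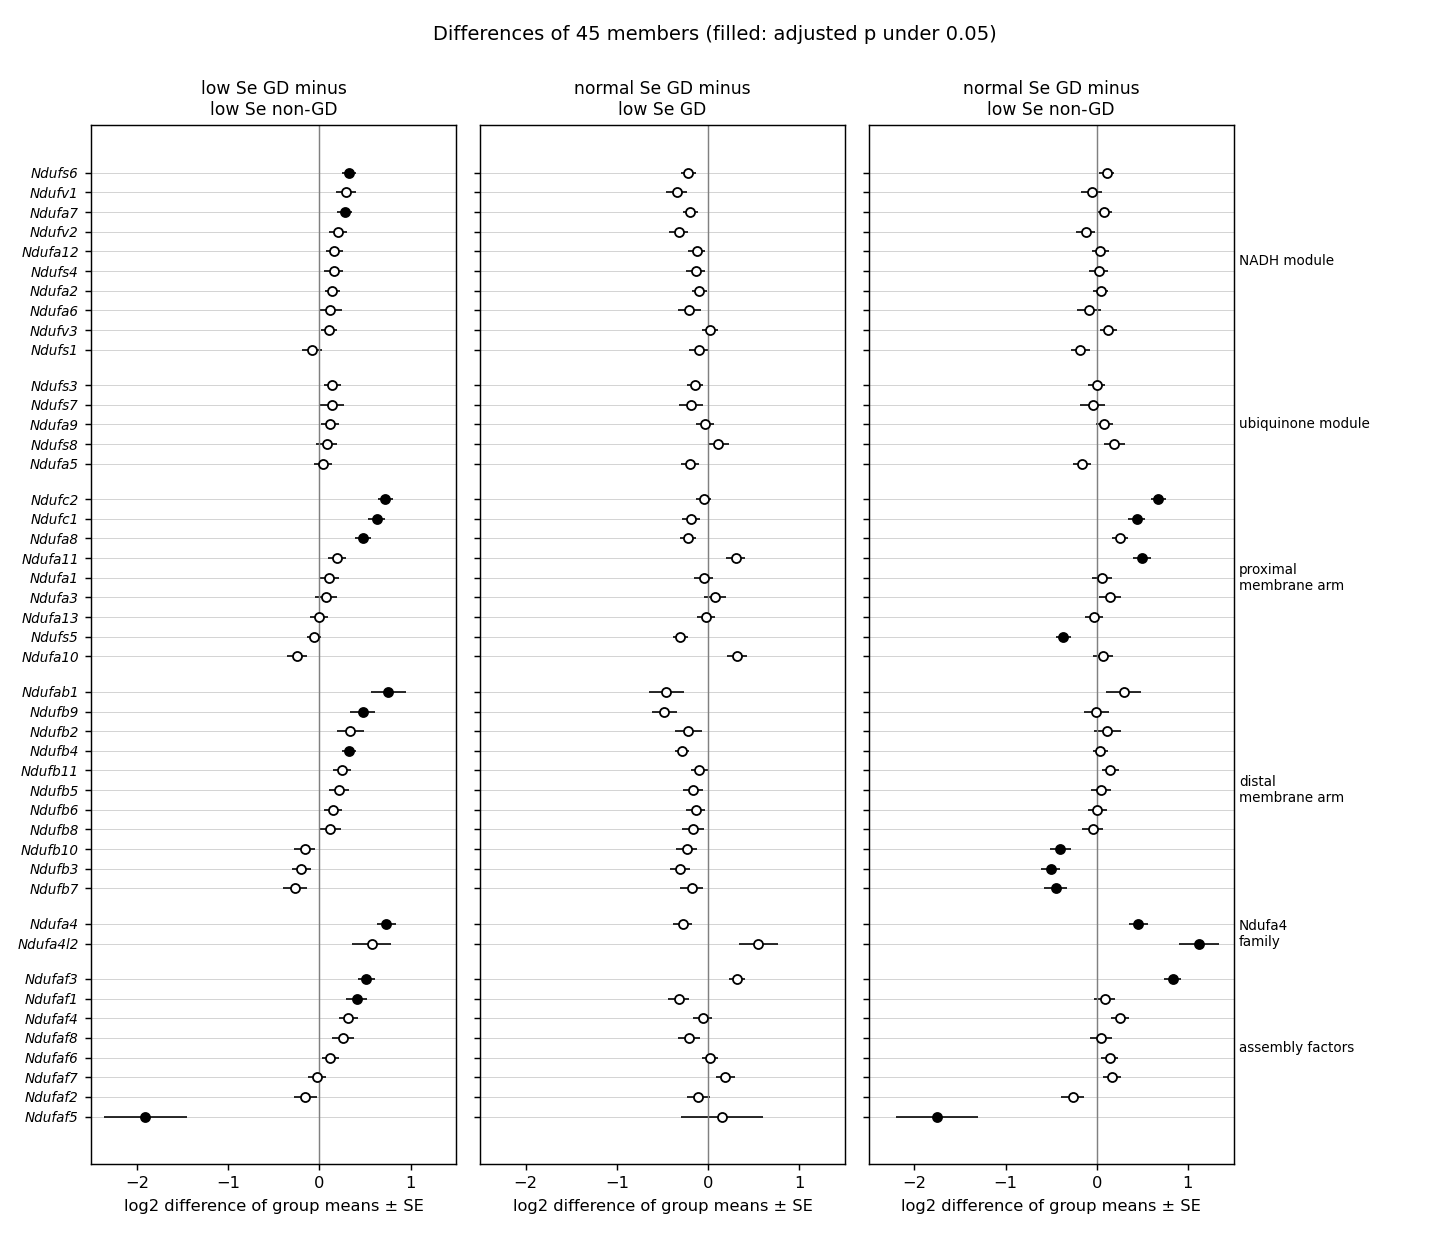
Log2 difference of group means with its standard error for 45 of the members, ordered by role, in the 3 comparisons; filled points have an adjusted p under 0.05. The proximal arm genes Ndufc2 and Ndufc1 are filled in both comparisons with low Se non-GD, no core subunit shown is filled in any, and in the middle panel no point is filled and 35 of 45 lie below 0.

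The second comparison set normal Se GD against low Se GD spleens, which differ in selenium supply among diseased mice. No member passed (0 of 46 by limma), beside 1.27% of all genes (0.976% higher and 0.292% lower). At an unadjusted p under 0.05, 12 members were lower and 4 higher, beside 6.71% and 12.7% of all genes. The median was -0.14, beside 0.00 over all genes, and 35 of 46 members had a negative difference, beside 50% of all genes. Normal Se GD arrays lay wholly below low Se GD arrays for 15 members and wholly above for 5, beside 11.4% and 17.9% of all genes (29.4% in either direction). Quantile normalization and the authors' deposited table brought the median to -0.07 and -0.06 with 31 negative members in each, beside all-gene medians of -0.03 and -0.02.

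Distal membrane arm genes had 11 of 11 negative differences, with 10 of 11 under quantile normalization and the authors' deposited table. Those with the lowest p of this arm were Ndufb4, where normal Se GD read 4.0, 4.02 and 4.01 and low Se GD 4.25, 4.31 and 4.32, and Ndufb9, with the arrays given above. Their differences were -0.29 ± 0.08 (SE; 0.821-fold, adjusted p = 0.112) for Ndufb4 and -0.48 ± 0.14 (SE; 0.718-fold, adjusted p = 0.117) for Ndufb9. In both genes the groups were separate, but neither value passed. NADH module genes had 9 of 10 negative differences. The proximal arm had 6 of 9, and its median changed sign with the scaling, from -0.05 to 0.05 under quantile normalization and 0.06 in the authors' deposited table.

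Ndufs5, a subunit of the proximal arm on the intermembrane space side, had the lowest adjusted p of the comparison. Normal Se GD read 3.54, 3.52 and 3.48 and low Se GD 3.78, 3.84 and 3.83, a difference of -0.30 ± 0.08 (SE; 0.811-fold, adjusted p = 0.0929). It passed as lower with slide as a block (-0.31, adjusted p = 0.0469, beside 6.5% of all genes called) and when probes had to be well above background on all 9 arrays (-0.30, adjusted p = 0.0406, beside 6.94%). Ndufaf3 and Ndufa4l2 had positive differences, at 0.32 ± 0.09 (SE; 1.25-fold, adjusted p = 0.118) for Ndufaf3 and 0.55 ± 0.22 (SE; 1.46-fold, adjusted p = 0.219) for Ndufa4l2, again without passing. Within slide 2, with 2 arrays of each group, 4 members were lower and 0 higher, beside 10.6% of all genes called and 4.80% lower. These were Ndufb9 (-0.62, adjusted p = 0.0413), Ndufab1 (-0.58, adjusted p = 0.0382), Ndufv1 (-0.40, adjusted p = 0.0441) and Ndufb10 (-0.37, adjusted p = 0.0498), all by limma.

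Erythroid and cell cycle genes lay on the same side. Of the erythroid markers 9 of 10 and of the cell cycle genes 10 of 10 had negative differences, with medians of -0.99 and -0.79, and 0 of either list passed (3 and 9 at an unadjusted p under 0.05). The erythroid means ran from 2.84 to 2.94 in normal Se GD and from 3.45 to 3.97 in low Se GD. Fat cell markers, of which Lep was well above background on no array, ran from -4.41 to -4.05 in normal Se GD and from -1.74 to 0.90 in low Se GD (mean of 7). Of the fat cell markers 1 of 7 was called lower, Adipoq (-5.59, adjusted p = 0.0448). B cell markers lay on the other side, with 9 of 10 positive, 2 called higher and a median of 0.41. The part of these cells in the members' values was not tested.

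**Figure D3:**
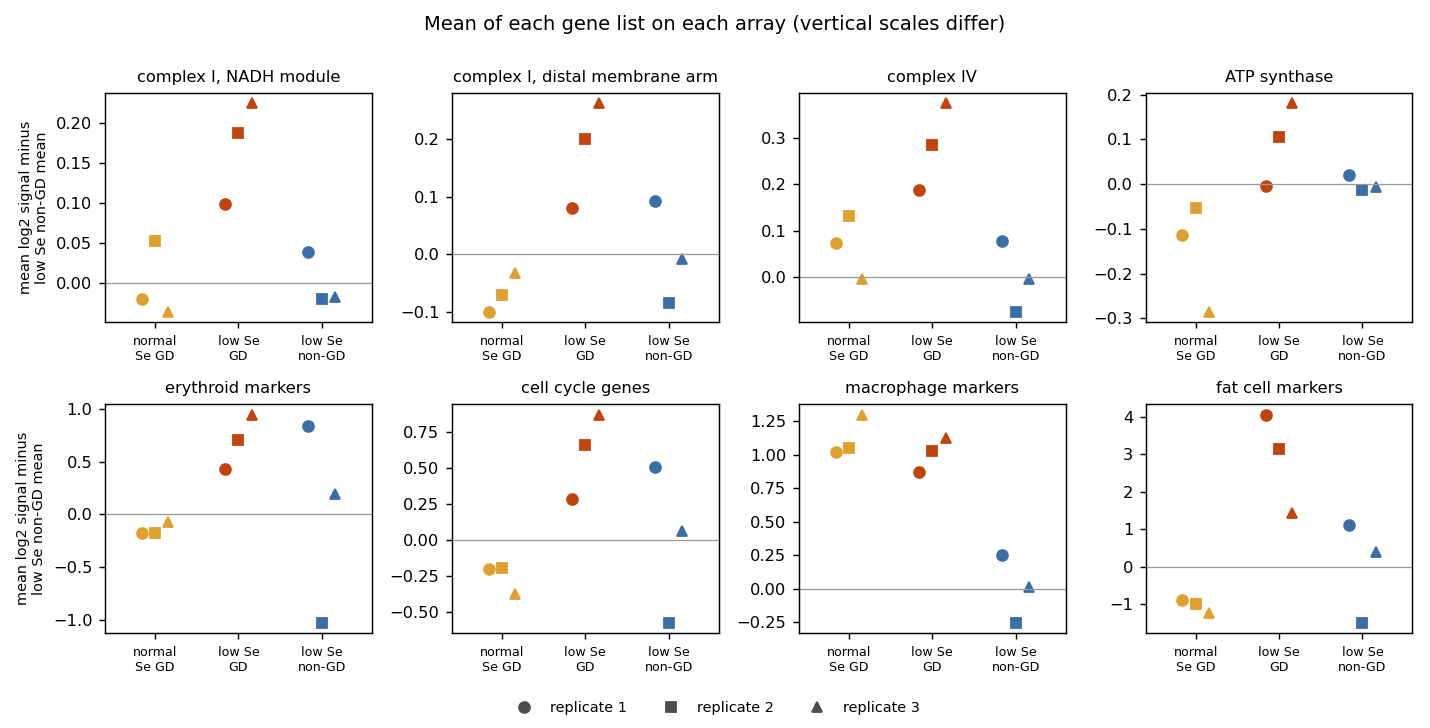
Mean log2 signal of 4 respiratory lists and 4 marker lists on each array, less the mean of the 3 low Se non-GD arrays, with replicates as symbols and a different vertical scale in each panel. Every panel has low Se non-GD replicate 1 above and replicate 2 below the other arrays of that group. Macrophage markers are above the low Se non-GD arrays on all 6 diseased arrays.

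The third comparison set normal Se GD against low Se non-GD spleens, which differ in both disease and selenium supply, and shares arrays with each of the others. Here 6 members were higher and 5 lower, 13.0% and 10.9%, beside 18.9% and 13.4% of all genes. The share called in either direction was 23.9%, beside 32.3% of all genes. The median was 0.05, beside 0.06 over all genes. Groups were separate upwards for 13 members and downwards for 5, beside 28% and 21.1% of all genes (49.1% in either direction). The split of calls moved to 8 higher and 2 lower under quantile normalization and in the authors' deposited table. The medians there were 0.14 and 0.15, beside 0.08 and 0.10 over all genes. With slide as a block the split was 3 higher and 4 lower, and the median -0.05, beside 0.13 over all genes. The total was 6 without low Se non-GD replicate 3, and 2 without both in-between arrays. Both totals stand without the share of all genes called in those fits. No value within a slide could be had.

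In the proximal arm 3 of 9 members were higher and 1 lower, beside 18.9% and 13.4% of all genes. Ndufc2 differed by 0.67 ± 0.08 (SE; 1.60-fold, adjusted p = 0.00131) and Ndufc1 by 0.44 ± 0.10 (SE; 1.35-fold, adjusted p = 0.0113), on the arrays given above. Ndufc1 did not pass with slide as a block (0.28, adjusted p = 0.0991) or when low Se non-GD replicate 3 was left out (0.42, adjusted p = 0.0536). Ndufa11, an accessory subunit of this arm, read -2.67, -2.71 and -2.5 in normal Se GD, -2.96, -2.95 and -2.87 in low Se GD, and -3.02, -3.21 and -3.13 in low Se non-GD. All 3 groups were separate, and normal Se GD stood 0.50 ± 0.10 (SE; 1.41-fold, adjusted p = 0.00787) above low Se non-GD. Ndufa11 did not pass with slide as a block (0.38, adjusted p = 0.100) or after normexp (0.17, adjusted p = 0.511), where its low Se GD difference from low Se non-GD was negative (-0.17, adjusted p = 0.369). Ndufs5, on the other hand, read 3.54, 3.52 and 3.48 in normal Se GD, 3.78, 3.84 and 3.83 in low Se GD, and 3.89, 3.88 and 3.87 in low Se non-GD. It was lower in normal Se GD than on any other array, at -0.36 ± 0.08 (SE; 0.777-fold, adjusted p = 0.00999) against low Se non-GD. The call was lost under quantile normalization (-0.18, adjusted p = 0.121) and in the authors' deposited table (-0.16, adjusted p = 0.191).

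The distal arm had 3 of 11 members lower and 0 higher in this comparison, beside 13.4% and 18.9% of all genes. Under quantile normalization it had 1 of each. Ndufb3, an accessory subunit, read 1.80, 1.80 and 1.54 in normal Se GD, 1.95, 2.02 and 2.08 in low Se GD, and 2.28, 2.15 and 2.22 in low Se non-GD. Normal Se GD lay wholly below both low selenium groups, at -0.51 ± 0.10 (SE; 0.704-fold, adjusted p = 0.00883) against low Se non-GD. Ndufb7, a subunit facing the intermembrane space, read 3.08, 3.04 and 3.48 in normal Se GD, 3.37, 3.36 and 3.40 in low Se GD, and 3.72, 3.61 and 3.61 in low Se non-GD. It was lower by the same test, at -0.45 ± 0.13 (SE; 0.732-fold, adjusted p = 0.0315), with normal Se GD replicate 3 nearer to the low Se non-GD arrays than the other two. Ndufb10, also facing that space, read 3.36, 3.31 and 3.64 in normal Se GD, 3.60, 3.69 and 3.72 in low Se GD, and 3.94, 3.71 and 3.85 in low Se non-GD. Its groups were separate by a narrow margin, at -0.40 ± 0.12 (SE; 0.759-fold, adjusted p = 0.0355). Ndufb3 passed in 18 of 19 alternatives, Ndufb7 in 8 and Ndufb10 in 7, so the last pair of calls depends on the setting.

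Ndufaf3 was higher, at 0.83 ± 0.09 (SE; 1.78-fold, adjusted p = 0.000990), and Ndufaf5 lower, at -1.75 ± 0.45 (SE; 0.297-fold, adjusted p = 0.0206). The Ndufaf5 difference with slide as a block was smaller (-0.44, adjusted p = 0.658). Both members of the Ndufa4 family were higher. Ndufa4 differed by 0.45 ± 0.10 (SE; 1.37-fold, adjusted p = 0.0127) and Ndufa4l2 by 1.12 ± 0.22 (SE; 2.18-fold, adjusted p = 0.00651). Normal Se GD was wholly above low Se non-GD for both. Ndufa4l2 did not pass after normexp (0.46, adjusted p = 0.101) or with slide as a block (1.46, adjusted p = 0.0662). The NADH and ubiquinone modules had 0 calls of 10 and of 6, beside 32.3% of all genes. At an unadjusted limma p under 0.05 both also had 0, beside 25.1% higher and 17.8% lower over all genes.

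For the calls as a whole, Ndufc2 and Ndufaf3 passed against low Se non-GD in all 19 alternatives of the third comparison, including the one without both in-between arrays (adjusted p = 0.0357 and 0.0296). In the first comparison Ndufc2, Ndufc1, Ndufa4 and Ndufa8 each passed in 18 of 20 and Ndufaf3 in 17. Of these 20, the slide block and the fit within slide 1 share the same differences and are not separate checks. Without both in-between arrays, with 2 arrays in each low Se group, none of these 5 passed, while their differences were 0.71 for Ndufc2, 0.57 for Ndufc1, 0.72 for Ndufa4, 0.45 for Ndufa8 and 0.49 for Ndufaf3. They did not pass within slide 1 either, where low Se GD is 1 array. Ndufa7 passed in 8 of 20, Ndufaf1 and Ndufb9 in 9 each, Ndufab1 in 12, and Ndufs6, Ndufb4 and Ndufaf5 in 13 each. Removing 1 array at a time left Ndufa7 called in 1 of 9 cases, Ndufaf1 in 2 and Ndufb9 in 3.

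**Figure D4:**
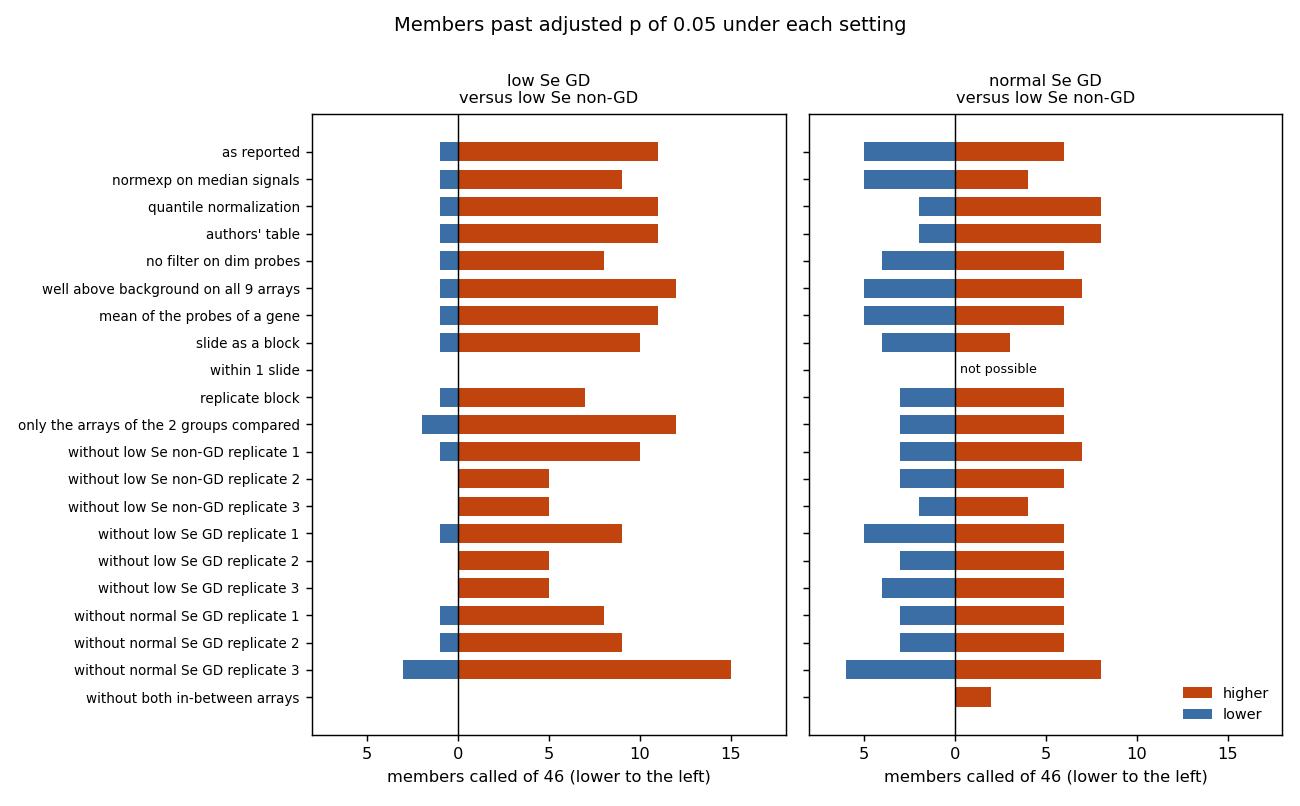
Number of the 46 members past an adjusted p of 0.05 under each setting, higher to the right and lower to the left of 0, for both comparisons with low Se non-GD. The 11 higher and 1 lower calls of low Se GD relative to low Se non-GD become 0 within 1 slide and without both in-between arrays, and the 6 and 5 calls of normal Se GD against low Se non-GD become 2 and 0 without those arrays.

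The other assembly factors of complex I, 14 measured under other names, had 1 higher and 1 lower in the first comparison. All genes had 12.8% higher and 12.1% lower there, and 18.9% and 13.4% in the third comparison. Tmem70, which also serves ATP synthase assembly, was higher (0.41, adjusted p = 0.0214), and Timmdc1, which builds the proximal arm, was lower (-0.88, adjusted p = 0.0152). In the third comparison Tmem70 (0.63, adjusted p = 0.00302) and Tmem126b (0.52, adjusted p = 0.00910) were higher in normal Se GD, while Ecsit (-0.44, adjusted p = 0.00958) and Tmem186 (-0.38, adjusted p = 0.0359) were lower. Tmem126b and Ecsit belong to the intermediate assembly complex that Ndufaf1 also joins.

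Other respiratory complexes were read from lists of the same kind. Of complex II, 0 of 4 passed in each comparison (1, 0 and 1 had an unadjusted p under 0.05), beside 24.9%, 1.27% and 32.3% of all genes. In the first comparison complex III had 2 higher and 1 lower of 9, complex IV 2 and 0 of 10, and ATP synthase 2 and 1 of 15. These counts stand beside 12.8% and 12.1% of all genes, and the medians were 0.20, 0.29 and 0.20. Uqcrb, a complex III subunit, was lower (-1.87, adjusted p = 0.00275), and Uqcr10 (0.38, adjusted p = 0.0248) and Uqcrh (0.38, adjusted p = 0.0165) were higher. For complex IV these were Cox7a2 (0.53, adjusted p = 0.00732) and Cox5a (0.48, adjusted p = 0.00653). For ATP synthase, Atp5pb was lower (-1.06, adjusted p = 0.00761) and Atp5g1 (0.49, adjusted p = 0.0376) and Atp5l (0.35, adjusted p = 0.0378) were higher. The complex II median was 0.11, and all 4 medians were above the all-gene median of 0.08. With slide as a block the medians of complex II (-0.034, with 1 of 4 genes called lower), complex III (0.073) and ATP synthase (0.031) were below the all-gene 0.077.

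In the second comparison 0 genes of these complexes passed, beside 1.27% of all genes. At an unadjusted p under 0.05 there were 5 of complex III, 5 of complex IV and 3 of ATP synthase. Negative differences were seen for 8 of 9, 9 of 10 and 15 of 15 genes, with 11 of 15 for ATP synthase under quantile normalization. In the third, Uqcrb (-1.99, adjusted p = 0.00161), Atp5pb (-1.38, adjusted p = 0.00215) and Atp5k (-0.63, adjusted p = 0.00408) were lower in normal Se GD and Cox5a (0.59, adjusted p = 0.00236) was higher. All genes had 18.9% higher and 13.4% lower in that comparison. The ATP synthase median changed sign there with the scaling, being -0.04 as reported and 0.20 under quantile normalization.

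Of 15 regulators of mitochondrial gene expression 3 were higher and 2 lower in low Se GD than in low Se non-GD. In this paragraph, counts of the first comparison stand beside 12.8% of all genes higher and 12.1% lower. Those of the third stand beside 18.9% and 13.4%. Gabpa, which binds the ETS motif searched above, was higher (0.92, adjusted p = 0.000677), and so was Tfb1m (0.51, adjusted p = 0.0185), a methyltransferase of mitochondrial ribosomal RNA. Polg, the mitochondrial DNA polymerase, was lower (-0.95, adjusted p = 0.000649), as was the coactivator Ppargc1a (-0.76, adjusted p = 0.0131). In normal Se GD against low Se non-GD the values were 0.89 for Gabpa (adjusted p = 0.000544), 0.41 for Gabpb1 (adjusted p = 0.00916), -0.86 for Polg (adjusted p = 0.000661) and -0.52 for Ppargc1a (adjusted p = 0.0416). In the second comparison 0 of 15 passed, beside 1.27% of all genes. Citric acid cycle genes had 0 higher and 2 lower of 14 in the first comparison, Idh3b (-0.86, adjusted p = 0.00232) and Fh1 (-0.53, adjusted p = 0.0243). In the third, Idh3b was lower (-0.61, adjusted p = 0.00553) and Sucla2 higher (0.30, adjusted p = 0.0387). Of 16 proteins of the large mitochondrial ribosomal subunit 0 passed in the first comparison and 1 was lower in the third, Mrpl18 (-0.64, adjusted p = 0.0109).

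Markers of other cells differed between the same groups. Against low Se non-GD, 12.8% of all genes were higher and 12.1% lower in low Se GD. In normal Se GD these shares were 18.9% and 13.4%. Macrophage markers were higher in 8 of 9 cases in low Se GD and in 9 of 9 in normal Se GD, each against low Se non-GD. Their mean ran from 2.43 to 2.71 in normal Se GD, 2.28 to 2.54 in low Se GD and 1.16 to 1.66 in low Se non-GD. C1qa, a complement component made by macrophages, differed most, by 1.62 (adjusted p = 0.000531) in normal Se GD and by 1.46 (adjusted p = 0.00107) in low Se GD. B cell markers were lower for 4 of 10 in low Se GD relative to low Se non-GD. Their mean ran from 2.28 to 2.40 in normal Se GD, 1.86 to 1.94 in low Se GD and 2.26 to 2.42 in low Se non-GD. Fat cell markers were higher for 4 of 7 in low Se GD relative to low Se non-GD, with a median difference of 2.38, and of the 6 brown fat markers Ucp1 and Elovl3 were well above background on no array. Erythroid markers had positive differences in 10 of 10 cases in that comparison, with a median of 0.78 and 0 called (0 at an unadjusted p under 0.05 by limma). Cell cycle genes were positive in 10 of 10, with a median of 0.58 and 2 called higher. Brown fat markers had 1 higher and 1 lower of 4. Of the other marker lists, T cell markers had 0 higher and 1 lower of 9, neutrophil markers 1 and 1 of 7, muscle markers 0 and 1 of 5, exocrine pancreas markers 0 and 1 of 8 and spleen stroma markers 0 and 1 of 5 in the same comparison. The part of any of these cells in the members' differences was not tested.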

How the data were processed

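RNA of 9 mouse spleen samples was hybridised singly to 1-colour Agilent arrays. Per the file headers, the authors deposited spot intensity from Agilent Feature Extraction 11.0.1.1 on array design 026655, background-subtracted and detrended, with marks of 0 or 1 for spots well above background, saturated or outlying. Their deposited log2 table, used as an alternative, shares 1 distribution between arrays; the labels and headers used here do not say how it was centred. Of its 9 columns, 6 matched their own scanner file best, and the other 3, all of low Se non-GD, came closer to a different array from that group.

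Here log2 processed signal was taken minus each array's 75th percentile over 43020 non-control spots, without outlier spots, and spots of a probe were averaged. Each gene was read from its brightest probe on average. A total of 26337 genes were tested, of 32451, after 6067 were left out as not well above background on at least 3 of 9 arrays and 47 as incomplete. All 9 arrays entered 1 limma 3.58.1 fit (R 4.3.3, functions lmFit and eBayes, 2-sided tests), with Benjamini-Hochberg adjustment over all genes tested and a threshold of 0.05. The fit was tested on simulated data. The 3 array replicates a group limit the precision.

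Groups came from the labels. The members and gene lists were chosen with earlier results of these data known. Values on every array are given for members past the threshold, core subunits and the Ndufa4 family, except that 1 member is counted but its values are not reported here. Of other lists, at most 4 genes a comparison past the threshold are named, with the greatest change first. Alternatives were other background corrections, scalings, filters and probe rules, slide or replicate number as a block, comparisons within a slide, and fits without 1 or more arrays. Gene names and promoter windows came from RefSeq on GRCm38.p6. Same-numbered arrays had correlations of -0.21 to 0.10 in their deviations from group means, and the numbers were not taken to pair them.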

Additional observations from a re-analysis of the deposited data

How the results depend on the processing

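No member past the threshold changed direction under any alternative run. For low Se GD relative to low Se non-GD the count of 12 members became 0 without both in-between arrays. The median of 0.14 became 0.087 in the slide block. Within 1 slide the differences are the same ones, so that median is not a separate check. Without 1 array at a time the count ran from 5 to 18 and the median from 0.13 to 0.20. For normal Se GD against low Se GD the count of 0 became 1 when all 9 arrays had to be well above background, 1 in the slide block and 4 within 1 slide. The median of -0.14 became -0.071 under quantile normalization, -0.056 in the authors' deposited table and -0.19 in the slide block. Within 1 slide the differences are again the same ones. Without 1 array at a time the count ran from 0 to 0 and the median from -0.18 to -0.11. For normal Se GD against low Se non-GD the count of 11 became 7 with slide as a block and 2 without both in-between arrays. The median of 0.05 became 0.14 under quantile normalization, 0.15 in the authors' deposited table and -0.053 with slide as a block. Without 1 array at a time the count ran from 6 to 14 and the median from 0.03 to 0.07. With the replicate block, which the numbers do not warrant, the counts were 8, 0 and 9 and the medians 0.14, -0.14 and 0.05. Fits without arrays have fewer samples. For the other settings the cause was not tested. The member counts of this section stand without the share of all genes called in the same settings. Normexp on mean signals was not run, since no mean signal was at hand; median signals and the fit without both in-between arrays were added after seeing the data. With slide 3 holding 1 array, the slide block draws its differences from the other 8. For low Se GD relative to low Se non-GD these are the differences within slide 1, of low Se GD replicate 1 alone. For normal Se GD against low Se GD they are those within slide 2. Those of normal Se GD against low Se non-GD are reached through both.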
